A study of Drosophila melanogaster with 3 samples.

Results

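The 47 genes described here encode the subunits of the fruit fly proteasome and their testis-type relatives, and were taken by name from the feature lists (Prosalpha, Prosbeta, Rpn or Rpt followed by a digit). They are 47 of 17509 features listed for the unsexed library and of 17753 listed for each sexed library. The main subunits number 32, of which 14 build the core particle (7 Prosalpha and 7 Prosbeta genes) and 18 build the regulatory particle (6 Rpt and 12 Rpn genes). The other 15 carry a subunit's name followed by T or R and are called copies here, as paralogs of a main subunit. They comprise 4 Prosalpha, 6 Prosbeta, 3 Rpt and 2 Rpn copies.

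The proteasome degrades proteins that carry a ubiquitin tag. Its core particle is a barrel of alpha and beta rings with the cutting sites of Prosbeta1, Prosbeta2 and Prosbeta5 inside. The regulatory particle sits on the ends of the barrel, and there a ring of Rpt ATPases unfolds substrates while Rpn subunits bind and remove ubiquitin. In Drosophila several subunits have a paralog that is known for its expression in the testis, where such paralogs take the place of the main subunit during sperm formation.

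The study profiled the embryonic germline by droplet sequencing of dissociated, GFP-sorted cells from Drosophila melanogaster, with 1 library in each of 3 groups. The unsexed group came from embryos of genotype vas-GFP at 0 to 8 h after egg laying and was made with kit version 2. The female and the male group came from Sxl-GFP, vas-GFP embryos at 5 to 8 h and were made with kit version 3. All embryos thus carried vas-GFP, a reporter driven by the germline gene vas, and each library pooled the cells of embryos with no label tying a cell to an embryo. With 1 library per group no difference below has a replicate check. No test was run, and every interval is an exact 95% interval that covers counting error only.

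The matrices held 58378567 unique molecular identifiers (UMIs) in 3810 unsexed cells, 109431813 in 10386 female cells and 47345241 in 6756 male cells, and 3657, 9430 and 6329 cells were kept. Germ cells were defined as cells with UMIs of at least 3 of 7 germline genes (vas, nos, pgc, zpg, aub, CG17650, CG14545), and other cells as those with UMIs of none of them. This gave 3198 unsexed, 1073 female and 4377 male germ cells, against 214, 6500 and 1221 other cells. Markers outside the rule differed between the classes in the same direction in all libraries for osk, with 83.8, 51.7 and 53.9 UMIs per 1000000 UMIs of the class (CPM) in germ cells and 3.87, 0.312 and 0.646 CPM in other cells, and for piwi. The marker gcl did not separate the classes in the sexed libraries, at 35.2 CPM (32.7 to 37.8) in germ and 34.8 CPM (33.2 to 36.4) in other cells of the female library, and 33.2 and 39.4 CPM in the male one. Together with ovo and tud, these markers outside the rule reached 125, 177 and 175.5 CPM in other cells, where all 5 had UMIs. The levels of ovo and tud by themselves are not given here. Median depth was 16676, 18539 and 7718 UMIs in germ cells and 3159.5, 6439 and 3250 UMIs in other cells. The female and male matrices shared 17 cell barcodes, the unsexed and female matrices 1, and the unsexed and male matrices 0.

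Germ cells were divided by their RNA of pgc, a maternally loaded transcript of the germline precursors that is lost as these cells age. Cells at 1000 CPM of pgc or more are called pgc-high, cells with 0 pgc UMIs pgc-none, and those between pgc-middle. The unsexed library held 887, 1274 and 1037 cells of the high, middle and none class, the female library 75, 401 and 597, and the male library 402, 1311 and 2664. Levels below are CPM of the summed UMIs of a class. Each transcript molecule is counted once at its end in this assay, so levels were not divided by gene length.

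Germ cells gave the proteasome a larger part of their RNA than other cells did. The ratio of core to regulatory UMIs was highest in the germ cells with most pgc. The median germ cell had 1.254% of its UMIs from the 32 main subunits in the unsexed library, with 1.235% for female and 1.318% for male germ cells. In other cells the median was 0.348%, 0.380% and 0.422%. Summed over genes, the core reached 8772 CPM in unsexed pgc-high cells and 5128 CPM in pgc-none cells, whereas the regulatory genes stood at 4975 and 5372 CPM. The core gave 1.76 UMIs per regulatory UMI in unsexed pgc-high cells (1.75 to 1.78), 1.32 in pgc-middle cells and 0.955 in pgc-none cells (0.946 to 0.963). The order was the same in the female library, from 1.55 (1.495 to 1.599) through 1.35 to 1.14 (1.13 to 1.15). In the male library the ratio went from 1.51 (1.48 to 1.54) through 1.34 to 1.195 (1.186 to 1.204). Other cells had a lower ratio than each germ class of their library, with 0.801 (unsexed), 0.579 (female) and 0.630 (male).

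**Figure D1:**
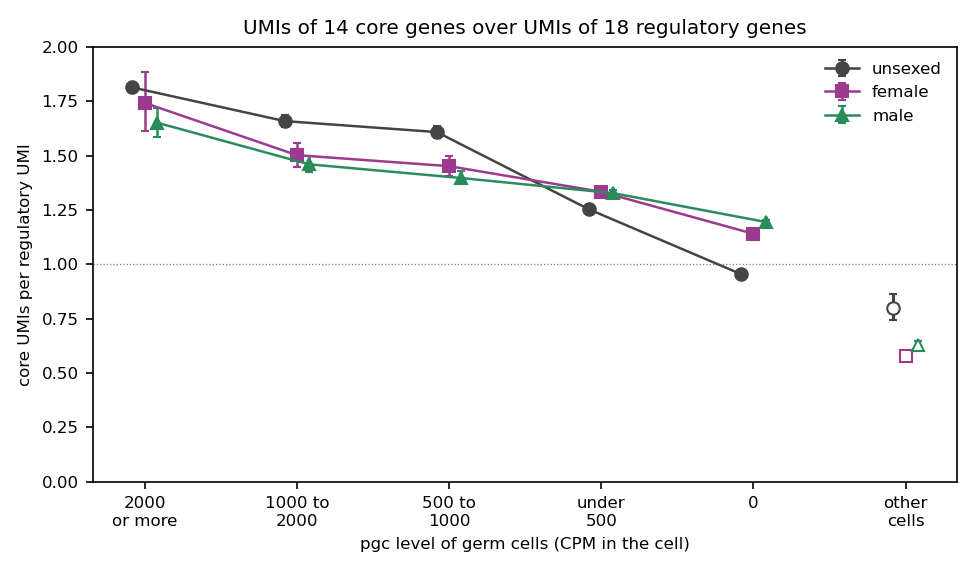
UMIs of the 14 core genes per UMI of the 18 regulatory genes (vertical axis) in germ cells at 5 levels of pgc in CPM and in other cells (horizontal axis), with exact 95% intervals of counting error. In each library the ratio is highest at 2000 CPM of pgc or more (1.81 unsexed, 1.74 female, 1.65 male) and lower at each step down to 0, and other cells (open symbols) lie below all germ cells.

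The same order held over 5 levels of pgc, which were chosen after the data were seen. From 2000 CPM or more down to 0, the unsexed ratio was 1.81, 1.66, 1.61, 1.253 and 0.955. The highest level held only 17 female cells, where the ratio was 1.74 (1.61 to 1.88).

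Levels varied widely among the subunits of 1 particle, and some of the extremes were the same genes in all 3 libraries. Among alpha-ring genes of germ cells, Prosalpha4 or Prosalpha5 was highest (Prosalpha5 at 643 CPM in the unsexed library, Prosalpha4 at 677 and 630 CPM in the sexed libraries). Among beta-ring genes Prosbeta1 was lowest in all 3 libraries, at 263, 261 and 293 CPM, although it carries a cutting site like Prosbeta5, which reached 753, 684 and 761 CPM. Prosbeta3, a beta-ring subunit without a cutting site, had the highest unsexed level at 803 CPM. Rpt6 was the highest ATPase gene at 568, 495 and 451 CPM and Rpt5 the lowest at 178, 173 and 205 CPM. Among Rpn genes Rpn6, a lid subunit that contacts the core, was highest at 468, 445 and 483 CPM. The lowest were Rpn1, a base scaffold, at 142 CPM in the unsexed library and Rpn3, a lid subunit, at 190 and 195 CPM in the female and male libraries.

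Prosalpha1 stood apart, with 0.303, 0.291 and 0.286 CPM in germ cells. The reference annotation places CG30382, which it names as a relative of Prosalpha1, close to it, and CG30382 had 0 UMIs in every class. Whether reads matching both genes were dropped in counting was not tested, so the level of Prosalpha1 is uncertain, and it passed no size filter below. For 15 main subunits and 2 copies the annotation shows a gene on the opposite strand, and for Rpt1 and 3 copies one on the same strand, so part of their counts could belong to a neighbour.

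The first comparison set germ cells against other cells of the same library, among genes with at least 20 CPM in 1 class and at least 50 UMIs over both. Of the 31 main subunits that passed, each had a higher level in germ cells in all 3 libraries, with an interval above 1, as had 47.2% of all genes tested in all 3. The number at least 2-fold higher was 29 (unsexed), 25 (female) and 23 (male), and none was 2-fold lower. Over all genes tested 32.7%, 35.5% and 35.4% were at least 2-fold higher. The median log2 ratio was 2.11, 2.22 and 2.07 for core genes and 1.46, 1.11 and 1.09 for regulatory genes, beside 0.49, 0.57 and 0.53 for all genes.

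Prosalpha4, an X-linked alpha-ring gene, had the largest ratio in each library. Its level was 641 CPM in germ cells and 81.3 CPM in other cells of the unsexed library, 677 and 84.0 CPM in the female and 630 and 88.7 CPM in the male library. The ratios were 7.89 (6.16 to 10.3), 8.06 (7.79 to 8.34) and 7.10 (6.44 to 7.84). Prosbeta3, Prosbeta5 and Prosalpha5 were also among the 5 largest in all 3 libraries. Prosbeta3 was 5.98-fold, 6.45-fold and 5.36-fold higher, Prosbeta5 5.36-fold, 6.20-fold and 6.17-fold, and Prosalpha5 5.20-fold, 5.90-fold and 5.61-fold. The remaining places went to Prosalpha2 at 5.89-fold in the unsexed library, Prosbeta4 at 5.06-fold in the female and Prosalpha3 at 4.40-fold in the male library.

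Rpn12 was the regulatory gene with the largest ratio and lay among the core genes. This lid subunit, which in yeast joins the lid last, had 354 against 71.0 CPM in the unsexed, 398 against 85.9 CPM in the female and 458 against 105 CPM in the male library. Its ratios were 4.98 (3.83 to 6.62), 4.63 (4.46 to 4.80) and 4.36 (3.98 to 4.78). Conversely, Prosbeta1 lay among the regulatory genes, 2.15-fold, 2.19-fold and 1.84-fold higher in germ cells. Rpn11, the deubiquitinase of the lid, and Rpn7, another lid subunit, were among the 5 smallest ratios in every library. Rpn11 was 1.30-fold (1.06 to 1.60), 1.68-fold and 1.58-fold higher, and Rpn7 1.76-fold, 1.68-fold and 1.58-fold. The other small ratios belonged to Rpn5 (2.07) and Rpn13 (2.31) in the unsexed library, to Rpt3 (1.62 and 1.65) and Rpn6 (1.69 and 1.76) in the female and male libraries, and to Rpn1 (1.93) in the female library.

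**Figure D2:**
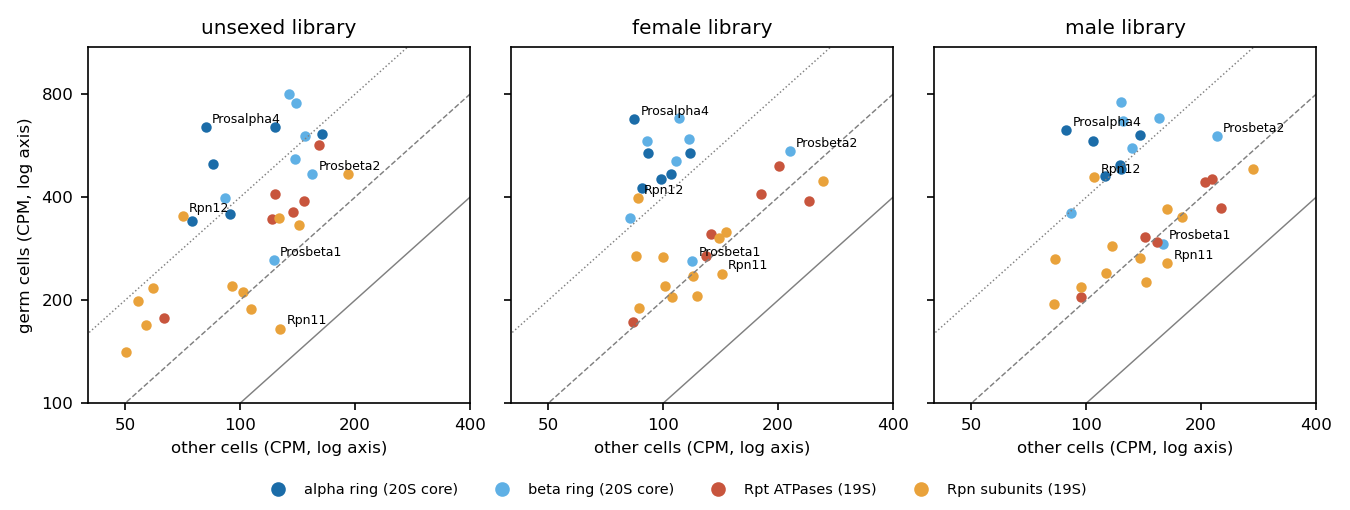
Level of 31 main subunits in germ cells (vertical axis) and in other cells (horizontal axis) of each library, both in CPM on log axes, with 1 point per gene and lines at equal level (solid), 2-fold (dashed) and 4-fold (dotted). All points lie above the solid line, and most core genes (blue) lie farther from it than most regulatory genes (red and orange), with Rpn12 among the core genes and Prosbeta1 among the regulatory ones.

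The median gene was itself higher in germ cells, and with that median set to 1 the counts at 2-fold were 21, 13 and 13. The core then held 12, 11 and 11 of these and the regulatory genes 9, 2 and 2. Over all genes the share of 2-fold calls that were higher in germ cells moved from 67.2% to 46.3% in the unsexed, from 70.3% to 46.1% in the female and from 70.0% to 45.6% in the male library. In the male library, counting the cells with UMIs of 1 or 2 germline genes as other cells lowered 23 to 12. Those 731 male cells had a median of 1.02% of UMIs from main subunits, near the 1.32% of male germ cells, while the 1857 such female cells had 0.396%, near the 0.380% of female other cells.

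The second comparison followed the subunits with falling pgc. All 13 core genes that passed the size filter had a lower level in pgc-none than in pgc-high cells in all 3 libraries, with intervals below 1, which held for 16.8% of all genes tested in all 3. Of 18 regulatory genes only Rpn5, a lid subunit, was below 1 in all 3, Rpn10, a ubiquitin receptor, and Rpn11 were above 1 in all 3, and 15 were neither, while 18.2% of all genes were above 1 in all 3. The median log2 ratio of core genes was -0.78 (unsexed), -0.45 (female) and -0.35 (male). For regulatory genes it was 0.19, 0.044 and 0.026, beside 0.14, 0.067 and 0.037 for all genes tested.

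At least 2-fold lower were 2 of 31 main subunits in the unsexed library and 0 in both sexed libraries, and 0 were 2-fold higher in any library. Over all genes 11.2% were 2-fold lower and 14.4% higher in the unsexed library, 5.60% and 5.05% in the female, and 4.10% and 1.79% in the male library. The core shift was therefore common to its members and mostly under 2-fold. With the median gene of the unsexed library set to 1, 5 core genes were 2-fold lower, the core median was -0.93 and the regulatory median 0.050, and the share of all calls that were higher moved from 56.4% to 46.4%.

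Prosbeta1 differed most, at 442 CPM in unsexed pgc-high, 222 CPM in pgc-middle and 163 CPM in pgc-none cells, a ratio of 0.369 (0.353 to 0.386). In the sexed libraries it began lower, at 330 and 323 CPM, and ended at 242 and 279 CPM, with ratios of 0.732 and 0.864. Prosbeta4, a beta-ring gene without a cutting site, went from 841 through 599 to 413 CPM in the unsexed library, a ratio of 0.492 (0.478 to 0.506), and its ratios were 0.657 and 0.730 in the sexed libraries. Prosalpha6 (0.516), Prosalpha7 (0.537) and Prosalpha4 (0.543) followed in the unsexed library. Prosalpha7 had the lowest ratio of the female library at 0.649, from 635 to 412 CPM, and stood at 0.688 in the male library. Prosalpha5 was among the 5 lowest in both sexed libraries at 0.690 and 0.714, as were Prosalpha6 in the female (0.705) and Prosalpha3 in the male library (0.730). The core gene nearest to 1 in the unsexed library was Prosbeta7, at 0.805.

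Rpn5 moved with the core. It went from 279 through 207 to 159 CPM in the unsexed library (ratio 0.571, 0.544 to 0.599), from 283 to 194 CPM in the female (0.687, 0.609 to 0.776) and from 316 to 211 CPM in the male library (0.667, 0.619 to 0.720), where it was the lowest ratio of all main subunits. Rpn11 moved the other way, from 112 through 166 to 209 CPM in the unsexed library (1.87, 1.77 to 1.99), with ratios of 1.34 (1.16 to 1.56) and 1.12 (1.03 to 1.22) in the sexed libraries. Rpn10 followed at 269 to 405 CPM (1.51), with 1.246 and 1.113 in the sexed libraries. Rpn8, the partner of Rpn11 in the lid, was 1.45-fold higher in unsexed pgc-none cells, but its female and male intervals (0.887 to 1.13 and 0.962 to 1.13) held 1. Rpt5 was 1.36-fold higher in the unsexed and 1.21-fold (1.097 to 1.337) in the male library, and its female ratio of 1.15 had an interval of 0.986 to 1.36. Rpn1 stood at 1.31 in the unsexed library, and at 1.16 and 1.07 in the sexed ones, while Rpn3 had sexed ratios of 1.22 and 1.07.

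**Figure D3:**
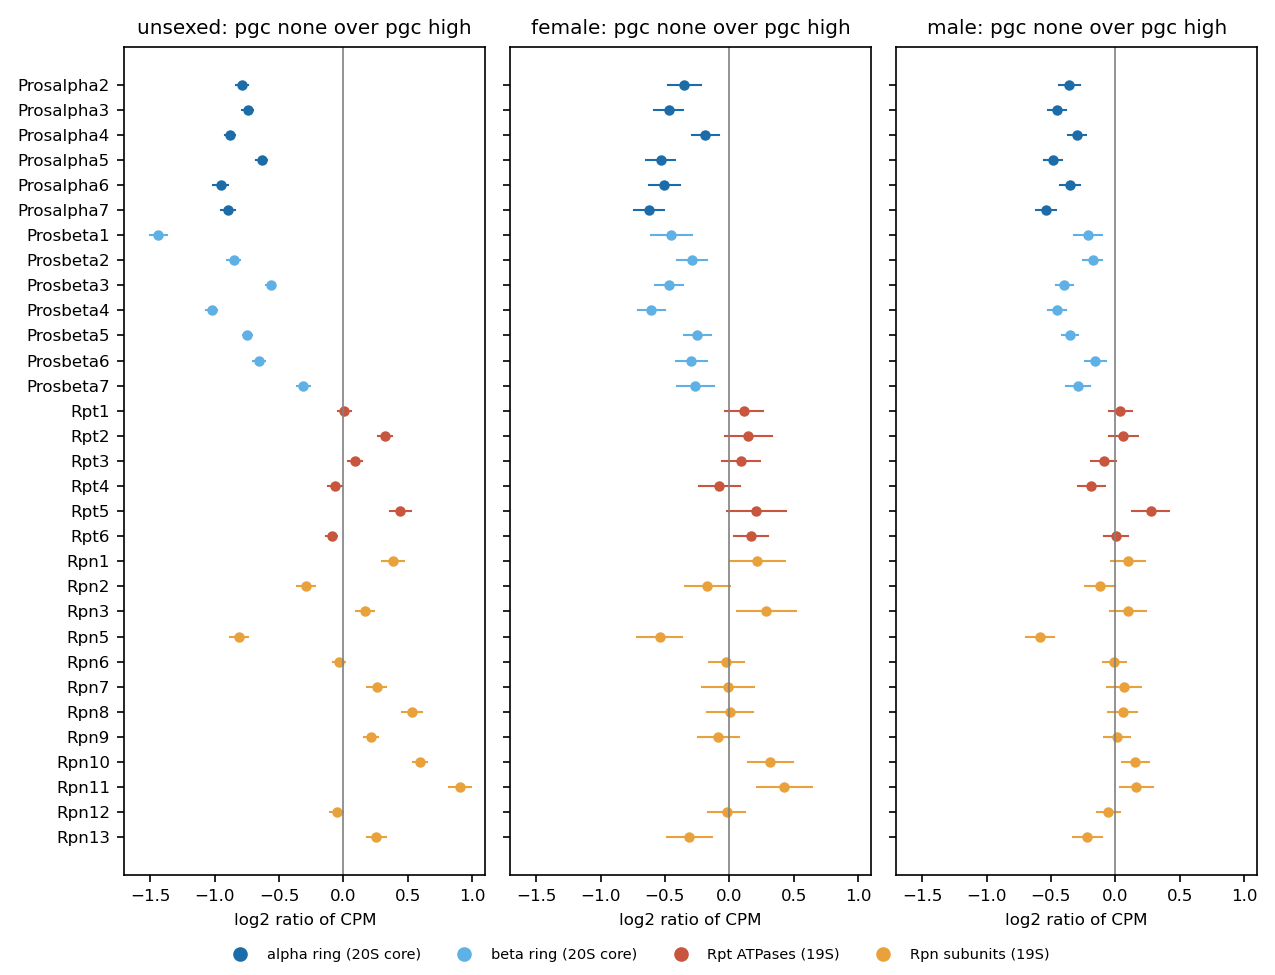
log2 ratio of CPM in pgc-none over pgc-high germ cells (horizontal axis) for 31 main subunits (vertical axis) in each library, with exact 95% intervals of counting error. All 13 core genes (blue) lie left of 0 in each panel, and the regulatory genes (red and orange) lie on both sides of 0. Rpn5 is the only regulatory gene that lies with the core in every panel. Rpn13 also lies within the core range in the female (-0.31) and male (-0.22) panels, as does an Rpt gene (-0.18) in the male panel.

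Somatic markers differed with pgc as well, in both directions. The summed level of 6 neural markers went from 21.5 to 44.8 CPM between unsexed pgc-high and pgc-none cells, from 86.6 to 284 CPM in the female and from 59.4 to 88.5 CPM in the male library. Sums of 6 mesoderm markers (from 177 to 214, 179 to 291 and 172 to 273 CPM) and 4 blood markers (from 10.2 to 17.7, 23.04 to 34.55 and 24.2 to 30.9 CPM) were also higher in pgc-none cells. Sums of 5 blastoderm markers were lower there, from 512 to 11.6, 624 to 33.7 and 247 to 19.7 CPM. Those of 5 epidermal markers (71.5 to 7.31, 8.29 to 55.7 and 11.9 to 15.1 CPM) and 3 gut markers (34.8 to 21.8, 35.9 to 71.0 and 82.0 to 41.8 CPM) differed in direction between libraries. The part of these markers in the core difference was not tested beyond the next value. In germ cells without any UMI of 8 somatic genes, a setting chosen after the data were seen, the core median was -0.77, -0.33 and -0.34.

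Of the 15 copies, 5 reached 10 UMIs in some class and 10 did not. The 5 are Rpt3R, Rpt6R, Rpt4R, Rpn12R and Prosbeta2R2, so all 3 ATPase copies but none of the 4 alpha-ring copies are among them. In germ cells of all libraries the copies together gave 0.513%, 0.543% and 0.680% of the UMIs of main subunits and copies. Copies have a median of 2 coding exons and main subunits a median of 3 in the reference annotation.

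Rpt3R (FBgn0037742, on 3R at 9754735 to 9756510 of BDGP6.54, minus strand, overlapping Alg12 on the opposite strand) was the most abundant copy, and its level was higher the lower pgc was. In the unsexed library it stood at 10.1 CPM in pgc-high, 45.0 CPM in pgc-middle and 84.4 CPM in pgc-none cells, from 147, 942 and 1467 UMIs. The ratio of pgc-none to pgc-high was 8.32 (7.02 to 9.93). In the female library the levels were 32.3, 42.0 and 56.4 CPM (1.75, 1.24 to 2.53) and in the male library 41.2, 57.4 and 72.5 CPM (1.76, 1.44 to 2.17). Over the same classes its main subunit Rpt3 had 377, 392 and 401 CPM in the unsexed library. Rpt3R therefore made up 2.62%, 10.3% and 17.4% of the UMIs of the pair in the unsexed, 7.78%, 10.3% and 12.2% in the female and 9.59%, 13.0% and 16.6% in the male library.

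Rpt3R was also far more abundant in germ cells than in other cells. Other cells had 3.87, 1.17 and 3.45 CPM, from 3, 60 and 16 UMIs, and germ cells were 12.5-fold (4.28 to 60.7), 42.5-fold (32.7 to 56.1) and 19.1-fold (11.7 to 33.4) higher. With each cell thinned to 5000 UMIs, 34.0% of unsexed pgc-none cells and 4.58% of pgc-high cells had an Rpt3R UMI, against 70.9% and 14.3% unthinned. The thinned shares were 22.8% in female and 30.6% in male pgc-none cells, and 8.33% and 20.8% in pgc-high cells. Female and male other cells had 0.453% and 2.60%, and only 35 unsexed and 269 male other cells were deep enough to be thinned. Unthinned, the share in other cells was 1.40%, 0.923% and 1.23%.

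The other 4 copies were rarer and showed the same order in the unsexed library. Rpt6R, beside its main subunit Rpt6, went from 1.17 to 14.7 CPM there (12.6-fold, 7.69 to 21.9). It was 1.87-fold higher (1.15 to 3.25) in male pgc-none cells, while the female interval of 0.760 to 4.75 held 1. Prosbeta2R2, the copy of the Prosbeta2 cutting subunit, went from 0.828 to 5.99 CPM (7.23-fold, 3.97 to 14.4), and both sexed intervals held 1. Rpt4R had 1 UMI in unsexed pgc-high cells and 83 UMIs, or 4.78 CPM, in pgc-none cells (69.2-fold, 12.1 to 2767). It had 0 UMIs in both sexed pgc-high classes. Against the limit of 3 counts per class its level was 4.43-fold higher in male and 1.16-fold higher in female pgc-none cells. Such folds leave out the counting error of the class with UMIs, and the female one lies near 1. Rpn12R, which lies within Sytbeta on the same strand, had 0 UMIs in unsexed pgc-high cells and 27 UMIs in pgc-none cells, 7.51-fold above the same limit. It went from 0.921 to 3.46 CPM in the female and from 1.59 to 3.39 CPM in the male library, and both intervals of the ratio (0.636 to 152 and 0.800 to 8.05) held 1.

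In other cells these 4 copies were near 0. Rpt4R had 0 UMIs in the other cells of all 3 libraries. Against the limit of 3 counts there, its level in germ cells was 34.0-fold higher (female) and 5.61-fold higher (male). Rpt6R was 26.4-fold (15.8 to 47.2) and 12.9-fold (5.00 to 47.6) higher in female and male germ cells, and Prosbeta2R2 26.8-fold (10.8 to 86.0) and 21.9-fold (3.87 to 869). Rpn12R was 14.6-fold (7.16 to 33.7) and 6.43-fold (1.73 to 53.8) higher. The 214 unsexed other cells were too few to bound these ratios for the 3 copies that had 0 UMIs there. Because Rpt3R alone passed the size filter, no median over the copies is given.

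**Figure D4:**
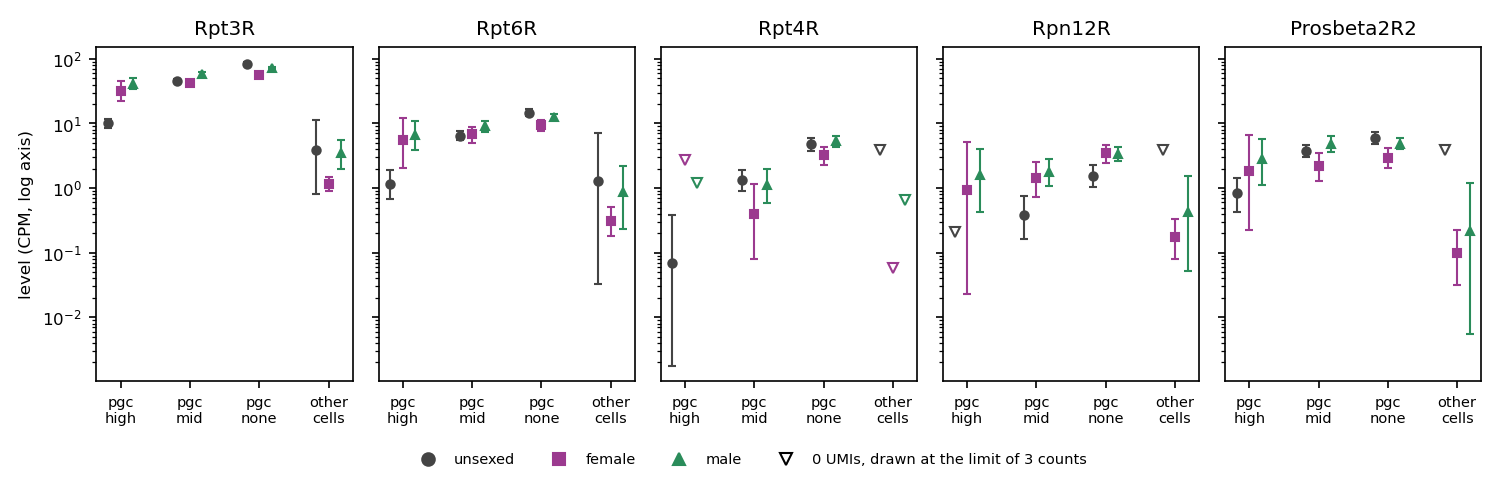
Level of the 5 copies that reached 10 UMIs in a class (vertical axis, CPM on a log axis) in pgc-high, pgc-middle and pgc-none germ cells and in other cells (horizontal axis) of the 3 libraries, with exact 95% Poisson intervals. Open triangles mark 0 UMIs and are drawn at the limit of 3 counts, and unsexed Rpt3R climbs from 10.1 to 84.4 CPM.

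The 10 scarce copies included 2 with 0 UMIs in the germ and other cells of every library, Prosalpha3T and Prosbeta4R2. Prosalpha4T2 had the most, with 5, 2 and 7 UMIs in germ cells. Prosalpha6T, a copy that male flies need for normal sperm, had 1 UMI in unsexed germ cells and 1 UMI in male other cells. Prosalpha4T1, Prosbeta2R1, Prosbeta4R1, Prosbeta5R1, Prosbeta5R2 and Rpn13R had at most 3 UMIs in a class. At these counts their presence in germ cells could not be told from background.

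The third comparison set female against male germ cells of the same pgc class, since these libraries share age and kit version. As the pgc-none class rests on 0 pgc UMIs, its make-up depends on depth, which differed between them. Among other cells, 0 of 31 main subunits that passed differed 1.5-fold between the sexes, beside 5.35% of all genes higher and 4.61% lower in the female library. In pgc-none germ cells 0 of 31 were 1.5-fold apart, beside 9.99% of all genes higher by this limit and 0.446% lower in the female library. In pgc-middle cells the count was also 0 (6.19% and 0.371% of all genes), and in pgc-high cells 0 (4.56% and 4.20%). The largest departure in pgc-none cells was that of Rpt5, with 179 CPM (female) and 211 CPM (male), a ratio of 0.845 (0.803 to 0.890).

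The 4 X-linked main subunits, Prosalpha4, Rpt3, Rpt4 and Rpt6, were the main subunits with intervals above 1 in pgc-none cells, as was the case for 95.8% of all X-linked genes. In female and male cells Rpt6 had 507 and 448 CPM (1.13, 1.097 to 1.169) and Rpt3 406 and 365 CPM (1.11, 1.07 to 1.15). Prosalpha4 had 648 and 597 CPM (1.09, 1.05 to 1.12) and Rpt4 318 and 298 CPM (1.07, 1.03 to 1.11). Their median log2 ratio was 0.14, against 0.57 for the 912 X-linked genes tested. It turned to -0.065 when germ cells needed only 2 of the germline genes, and was 0.061 without doublet removal. Between 40 and 74 of these 912 genes had a lower ratio than each of the 4, a share of 4.39% for Rpt4 up to 8.11% for Rpt6. In pgc-middle cells the median of the 4 was -0.0017 against 0.47 for all X-linked genes, and in pgc-high cells -0.0028 against 0.30. The 4 were split in pgc-middle cells, with Rpt3 (0.951) and Rpt4 (0.942) lower and Prosalpha4 (1.06) and Rpt6 (1.05) higher in the female library.

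Autosomal main subunits were slightly lower in the female library. Of 27 that passed, 24 had an interval below 1 in pgc-none cells, against 50% of all autosomal genes, and the median log2 ratio was -0.15 beside -0.12 for all autosomal genes. Besides Rpt5, the lowest were Prosbeta4 (525 against 619 CPM, 0.848), Prosbeta3 (0.856), Prosalpha3 (0.859) and Rpn10 (0.866). Rpn3 (1.005, 0.954 to 1.057), Rpn2 and Prosbeta7 had intervals that held 1. The median was -0.15 in pgc-middle cells, where Rpt5 (0.841), Rpn9 (0.842) and Rpn12 (0.846) were lowest, and -0.12 in pgc-high cells, where Rpn10 (0.773) and Rpn11 (0.785) were lowest. With the median gene set to 1, the pgc-none median over all 31 main subunits, X-linked ones included, moved from -0.13 to -0.055.

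**Figure D5:**
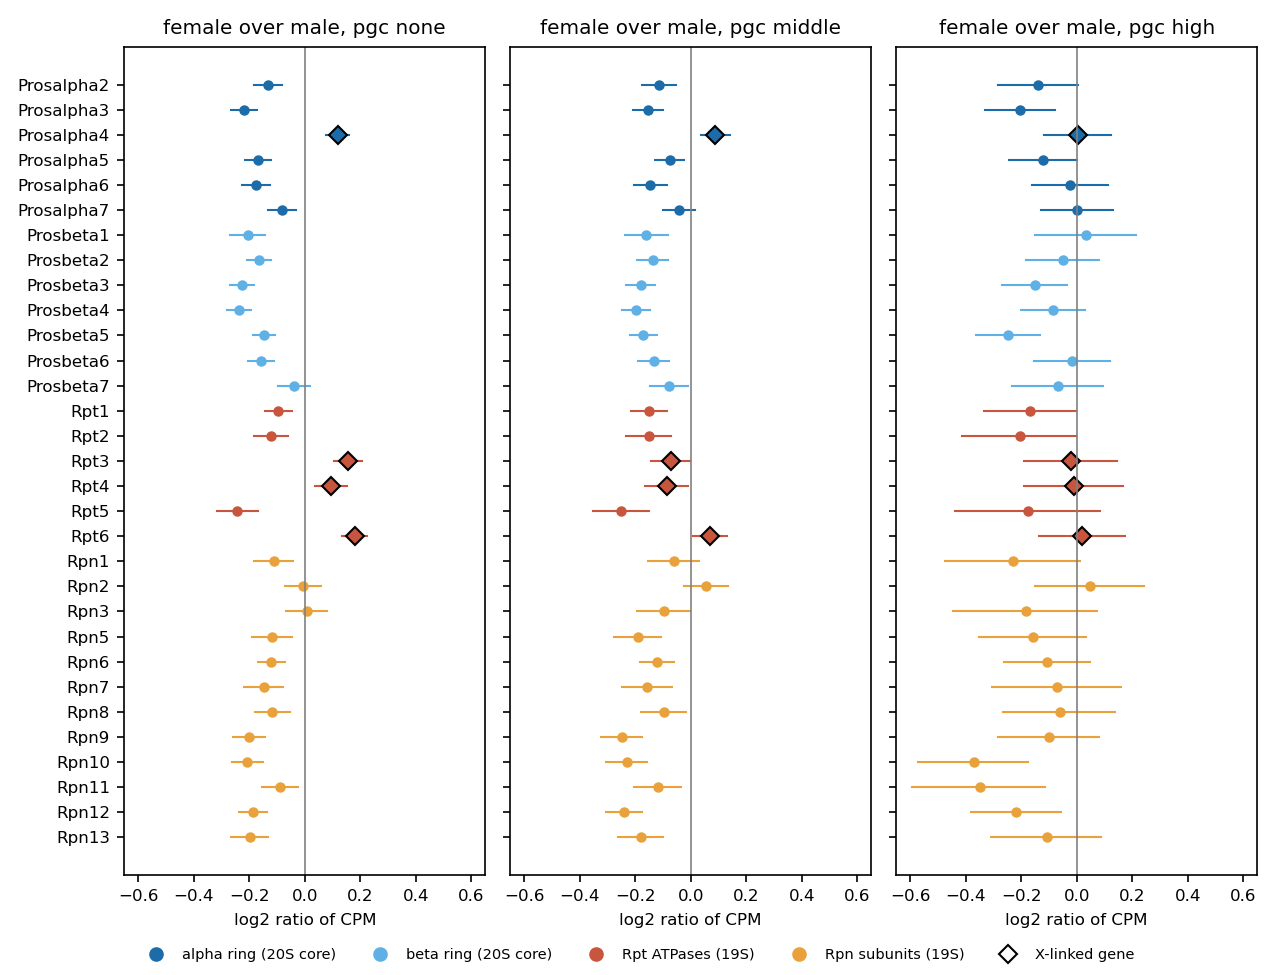
log2 ratio of CPM in female over male germ cells (horizontal axis) of 31 main subunits (vertical axis) within each pgc class, with exact 95% intervals of counting error. In pgc-none cells the 4 X-linked genes (outlined diamonds) lie right of 0, between 1.07 and 1.13 on the linear scale, and most autosomal genes (circles) lie left of it.

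Among copies, Rpt3R was lower in female than in male pgc-none cells, at 56.4 against 72.5 CPM (0.777, 0.709 to 0.851). Rpt6R (0.750, 0.597 to 0.938), Rpt4R (0.609, 0.410 to 0.885) and Prosbeta2R2 (0.602, 0.399 to 0.890) were lower too. Rpn12R had a ratio of 1.02 (0.679 to 1.51).

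Female pgc-none cells carried more somatic RNA than male ones, with 284 against 88.5 CPM over 6 neural markers, all 6 of which had UMIs in both, and with 55.7 against 15.1 CPM over 5 epidermal markers, again with UMIs of each in both. Female and male other cells had 983 and 1328 CPM of the neural and 576 and 413 CPM of the epidermal list. Without the cells holding UMIs of the 8 somatic genes the neural sum was 130 against 70.4 CPM. These 8 genes include every neural marker but elav and dpn. The sum therefore holds elav and dpn alone, and its fall was set in part by the choice of cells. In the cells left, Rpt3R had a ratio of 0.835 (0.755 to 0.923), Rpt4R 0.791 (0.518 to 1.18) and the 4 X-linked subunits a median log2 ratio of 0.18. Depth also differed, at a median of 19018 UMIs in female and 7955 UMIs in male pgc-none cells. Its part in these ratios was tested only by thinning, with the classes drawn anew from the thinned cells. This gave an X-linked median of 0.17 and an autosomal median of -0.083.

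A list of 23 genes that act with the proteasome was followed beside it. Between pgc-none and pgc-high cells, 4 of 21 that passed were at least 2-fold higher and 1 lower in the unsexed library, and 1 of 22 was higher in each sexed library, beside 14.4% and 11.2% of all unsexed genes and 5.05% and 1.79% of all female and male genes. In germ cells against other cells, 11, 10 and 10 were 2-fold higher and 2, 1 and 2 lower in the unsexed, female and male libraries, beside 32.7%, 35.5% and 35.4% of all genes higher and 16.0%, 15.0% and 15.2% lower. Pomp, the chaperone that helps assemble the core, was 5.32-fold, 7.27-fold and 6.00-fold higher in germ cells, within the range of the core genes. In the unsexed library it differed by pgc less than any core gene, with 796 and 750 CPM in pgc-high and pgc-none cells (0.942).

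Rad23, a shuttle that brings ubiquitinated proteins to the proteasome, was below 1 in all 3 libraries, as the core genes were. It went from 774 to 351 CPM in the unsexed library (0.454) and had ratios of 0.530 and 0.623 in the female and male libraries. Usp14, a deubiquitinase bound to the regulatory particle, was lower by pgc in all 3 as well, with 275 and 167 CPM in the unsexed library and ratios of 0.609, 0.680 and 0.659. PI31, a core-binding regulator, went from 142 to 72.6 CPM in the unsexed library (0.511), and its sexed intervals held 1 (0.742 to 1.22 and 0.795 to 1.07). Uch-L5, a deubiquitinase of the regulatory particle, was 3.06-fold, 3.72-fold and 3.34-fold higher in germ cells than in other cells.

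The regulators of proteasome transcription did not share 1 direction in the unsexed library. The transcription factor gene cnc had 81.0 CPM in unsexed pgc-high and 70.3 CPM in pgc-none cells, but was 2.17-fold and 2.50-fold higher in female and male pgc-none cells. Keap1, which encodes its inhibitor, was 2.92-fold higher and maf-S, which encodes its partner, 2.14-fold higher in unsexed pgc-none cells. The ratios of Keap1 and maf-S in the sexed libraries are not given here. By pgc, cnc was the only gene of the list at least 2-fold higher in either sexed library. The polyubiquitin gene Ubi-p63E was 4.90-fold higher in unsexed pgc-none cells, at 141 against 28.7 CPM, and lower in germ than in other cells of each library (0.318, 0.474 and 0.492). The other polyubiquitin gene, the X-linked Ubi-p5E, was 2.63-fold higher in unsexed pgc-none cells. In female pgc-none cells it was 2.39-fold higher than in male ones, the only 1 of 22 tested list genes at least 1.5-fold apart. By that limit 457 of the 912 X-linked genes tested were higher in the female library. Over all genes 9.99% were higher and 0.446% lower.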

How the data were processed

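The authors deposited UMI counts per gene and cell, written by Cell Ranger software for BDGP6 (versions 3.0.1 and 3.1.0 in the matrix headers), per the file headers and the submitters' processing notes. The annotation release is not given in the sources used here. Kept cells had at least 1000 UMIs, 500 genes and no more than 20% mitochondrial UMIs. Scrublet in scanpy 1.11.5 scored doublets, and the highest 0.8% per 1000 cells were removed (114, 845 and 358). Mitochondrial UMIs (1.79% of the unsexed library, 0 in the sexed ones) were left out of totals. The authors also deposited dense count tables of the sexed libraries at greater depth (132604728 and 121031147 UMIs), used as an alternative, and the reason for the difference is not given.

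UMIs were summed per class and scaled to CPM. UMI sums carry exact Poisson, shares Clopper-Pearson and ratios conditional binomial intervals (scipy 1.17.1), which cover counting error only. Log2 ratios add 1 CPM. No count model was fitted, since each group has 1 library. Genes were called at 2-fold, or 1.5-fold between sexes. Gene positions come from the BDGP6.54 annotation. The computation was tested on simulated counts. Members, lists and classes were chosen with earlier results of these data known. Named by rule are the extremes of each subcomplex, the 5 highest and lowest ratios per comparison, X-linked members, copies with 10 UMIs and the list of 23 genes.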

Additional observations from a re-analysis of the deposited data

Results flagged for a closer look

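Rpn13, a ubiquitin receptor of the regulatory particle, was 1.19-fold higher in pgc-none than in pgc-high cells of the unsexed library and lower in both sexed libraries, with ratios of 0.807 (female) and 0.859 (male). The log2 ratios differed by 0.56 between the unsexed and female and by 0.47 between the unsexed and male libraries. The ATPase gene Rpt6 had a ratio of 0.940 in the unsexed and 1.12 in the female library, a log2 difference of -0.25. In each pair both intervals excluded 1 in opposite directions. The differences were not tested, as there is 1 library per group, and kit version and age range also differ between these libraries and cannot be told apart from them.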

How the results depend on the processing

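Of the summary values recomputed under the alternatives, 427 kept their value within counting error or their count within 1.5 times, 38 moved and 3 changed sign; of the single values for the 5 copies by pgc, 142 stayed and 53 moved, with none changing sign. With at least 2 germline genes per cell, the female regulatory median between pgc classes was -0.10, the core median -0.63 and the median of all main subunits -0.37, the sex medians in pgc-none cells were -0.065 for X-linked and -0.36 for autosomal members, and the female copy share was 0.511%. With at least 4, these sex medians were 0.18 and -0.094. Setting the median ratio to 1 gave germ-over-other medians of 1.22, 0.73 and 0.69 and counts of 13 in both sexed libraries, 5 lower unsexed subunits by pgc, sex medians in pgc-none cells of 0.21 and -0.071, and -0.098 for autosomal members in pgc-middle cells. Counting every cell that missed the germ rule as other gave the male library 12 and a median of 0.73. Thinning to 5000 UMIs gave a female copy share of 0.492%, 1 lower unsexed subunit, 1 subunit apart between sexes in pgc-high cells, an X-linked median of -0.12 there and an autosomal one of -0.083 in pgc-none cells. Without cells holding somatic UMIs the X-linked median in pgc-high cells was 0.039 and the unsexed copy share 0.494%. Limits of 500 and 2000 CPM of pgc gave X-linked medians of -0.053 and -0.11 in pgc-high cells, 1 lower unsexed subunit at 500 and a male regulatory median of 0.14 at 2000. Lower fold limits gave 12 lower and 2 higher unsexed subunits, 2 lower female ones and 2 apart by sex in pgc-high cells. No size filter gave 1 lower subunit in each sexed library and 1 apart by sex in pgc-none and in pgc-middle cells, each of them Prosalpha1 with at most 6 UMIs in a class. Without doublet removal the sex medians were 0.061 for X-linked members in pgc-none cells and -0.23 for autosomal members in pgc-none and pgc-middle cells. No paired analysis was possible because each group has 1 library. Depth limits values of the copies, of the 75 female pgc-high cells and of the 214 unsexed other cells.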
